A study of Homo sapiens with 36 samples.

Results

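The clustered protocadherin genes on chromosome 5 were taken from GENCODE release 44, in its version for GRCh37 (hg19), as the protein-coding genes whose symbol is PCDHA, PCDHB, PCDHGA, PCDHGB or PCDHGC followed by a number and which lie within chr5:140160000-140900000. There were 51 such genes among 20163 protein-coding genes: 13 in the alpha subcluster (PCDHA1 to PCDHA13), 16 in the beta subcluster (PCDHB1 to PCDHB16) and 22 in the gamma subcluster (PCDHGA, PCDHGB and PCDHGC genes). All lie on the plus strand. PCDHAC1 and PCDHAC2, the C-type genes of the alpha subcluster, do not meet the naming rule and are described apart.

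Clustered protocadherins are cell surface adhesion proteins of the cadherin family, best known in neurons, where each cell uses its own combination of them to tell self from non-self. An alpha or gamma gene has its own promoter and a large variable first exon that is spliced to constant exons shared by its subcluster, whereas beta genes have no shared constant exons. Promoter choice is known to involve CTCF, cohesin and DNA methylation, and the clusters are known as a place of long-range silencing in tumour cells. PRC2 is the Polycomb complex that writes the repressive mark H3K27me3, with EZH2 as its enzyme and SUZ12 as a core subunit. PHF19 and MTF2 are Polycomb-like proteins that associate with it.

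The study profiled DU145 cells, a prostate cancer line derived from a brain metastasis of a prostate adenocarcinoma, by ChIP-seq, in which DNA bound by a protein or mark is precipitated and sequenced. Cells carried a lentiviral short hairpin RNA, either a control (shCTR) or 1 against the long PHF19 isoform (shPHF19L#4), and were selected with puromycin. Used here were 14 deposited peak lists, with 2 replicates each: PHF19, EZH2 and SUZ12 in shCTR, and H3K27me3 and MTF2 in shCTR and shPHF19L#4. The study describes the replicates as biological replicates, and as independent ones for PHF19. Everything comes from 1 cell line and 1 hairpin, and the populations are pools of transduced cells. PHF19 peaks of shPHF19L#4 cells and expression data were not analysed here, so neither the depletion nor the cell type was checked from these lists.

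The peak lists of the replicates stood far apart in length before any gene was examined. The deposited lists held 1072 and 14218 PHF19 peaks in replicates 1 and 2, 2060 and 1236 EZH2 peaks, and 1523 and 232 SUZ12 peaks. H3K27me3 lists held 39254 and 15994 peaks in shCTR and 35128 and 57026 in shPHF19L#4. MTF2 lists held 2516 and 32254 peaks in shCTR and 4216 and 34623 in shPHF19L#4. Library depth is unknown, since no read totals come with the lists. Peaks carry the authors' MACS score, which is not scaled between lists. The PHF19 list of replicate 1 gives tags instead, and no value accompanies the MTF2 peaks of replicate 1. The part of such differences between lists in their lengths was not tested.

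Over the whole interval the 14 lists placed 56 peaks, of which 13 came from the 7 replicate 1 lists and 43 from the 7 replicate 2 lists. EZH2 and SUZ12 had no peak in the interval in either replicate. PHF19 had no peak in replicate 1 and 7 in replicate 2. H3K27me3 had 7 and 6 peaks in shCTR and 5 and 10 in shPHF19L#4. MTF2 had 0 and 11 peaks in shCTR and 1 and 9 in shPHF19L#4. Because the cells were measured in bulk, a weak peak in all cells and a strong peak in few cells cannot be told apart.

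**Figure D1:**
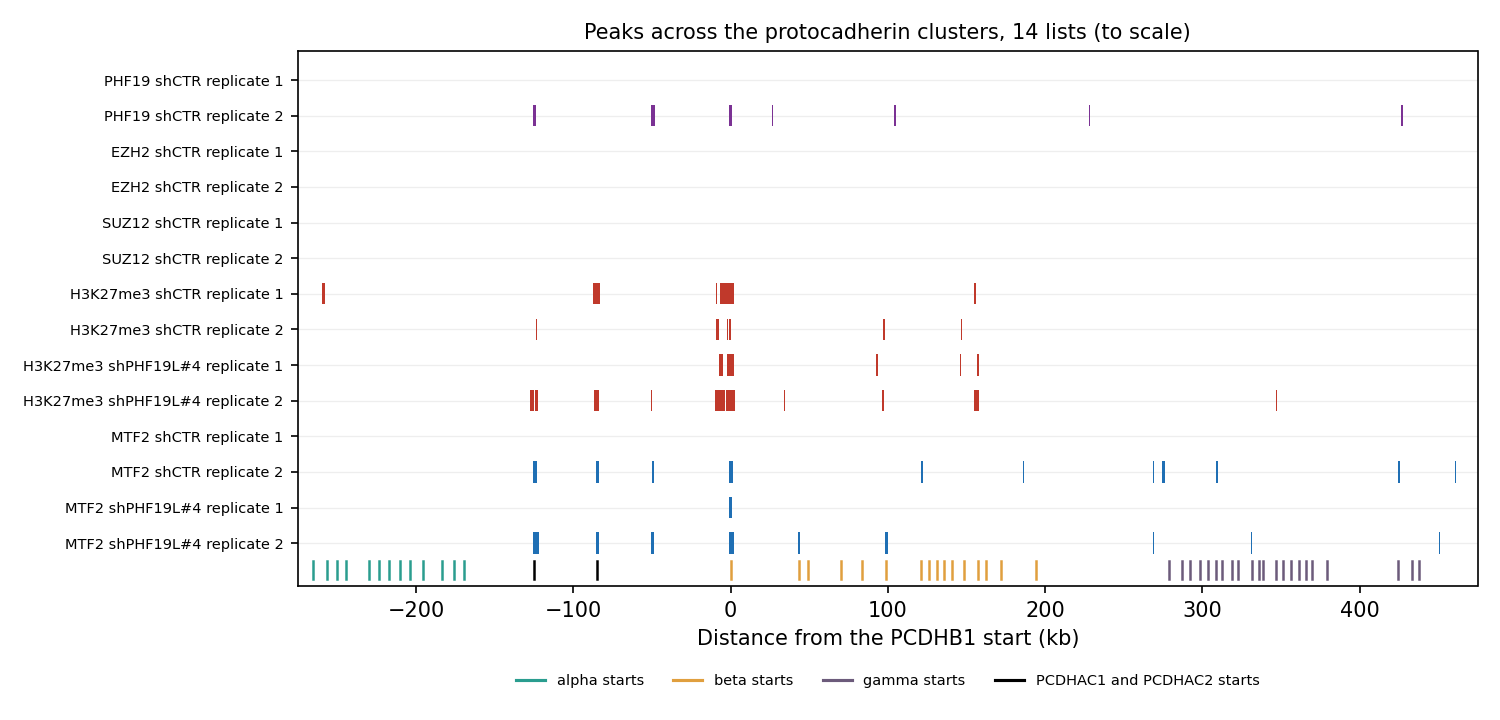
Peaks of the 14 lists across the interval, drawn to scale against the distance in kb from the PCDHB1 start, with a tick for each gene start. EZH2 and SUZ12 rows are empty, and the place with peaks in the most lists is at 0, the PCDHB1 start.

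Merged over all lists, the peaks formed 28 sites, of which 20 were in a single list and 8 in 2 or more. The site at the PCDHB1 start was in 8 lists and that at the PCDHAC1 start in 5. By subcluster, 15 peaks lay in the alpha segment, 21 in the beta segment and 7 in the gamma segment, with 9 more between alpha and beta and 4 between beta and gamma. Relative to length, the segment between alpha and beta held the most, 23.1 peaks per 100 kb, against 6.63 in alpha, 10.6 in beta and 3.84 in gamma. These 9 peaks were all H3K27me3 peaks and lay upstream of, or across, the PCDHB1 start.

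The main measure was a peak within 1 kb of the start of a gene, since neighbouring starts lie close together, with a median spacing of 6.81 kb in alpha, 9.09 kb in beta and 4.97 kb in gamma. Of the 51 genes, 41 had no such peak in any list, 7 had one in 1 list, 2 had one in 2 lists and PCDHB1 had one in 8 lists. Among all protein-coding genes, 9.79% had one in 5 or more lists. The 10 genes with a peak in any list were 0 of 13 alpha, 6 of 16 beta and 4 of 22 gamma genes, and of all protein-coding genes 48.0% had a peak in any list. Replicate 1 lists marked 2 of the 51 genes, against 14.4% of all genes, and replicate 2 lists marked 10, against 47.5%.

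In shCTR, PHF19 peaks marked 0 and 1 of the 51 starts in replicates 1 and 2, against 2.39% and 9.17% of all protein-coding genes. EZH2 marked 0 in both replicates, against 1.94% and 3.67% of all genes, and SUZ12 marked 0 in both, against 0.268% and 0.679%. With backgrounds of 3.67% or less, a count of 0 among 51 genes is close to what the share over all genes gives. It is not read as a property of the clusters. For PHF19 replicate 2 the share of members, 1.96%, was below the 9.17% of all genes, and this difference was not tested.

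H3K27me3 marked 1 and 3 of the 51 starts in shCTR (1.96% and 5.88%), against 11.7% and 8.70% of all protein-coding genes. In shPHF19L#4 it marked 2 and 3 starts (3.92% and 5.88%), against 11.6% and 19.0%. MTF2 marked 0 and 4 starts in shCTR (0% and 7.84%), against 3.55% and 32.8%. In shPHF19L#4 it marked 1 and 4 starts (1.96% and 7.84%), against 7.00% and 37.2%. In each of these 8 lists the share of clustered protocadherin starts was below that of all genes. The genes lie side by side, and those of alpha and of gamma share exons, so they are not replicates and this difference was not tested.

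**Figure D2:**
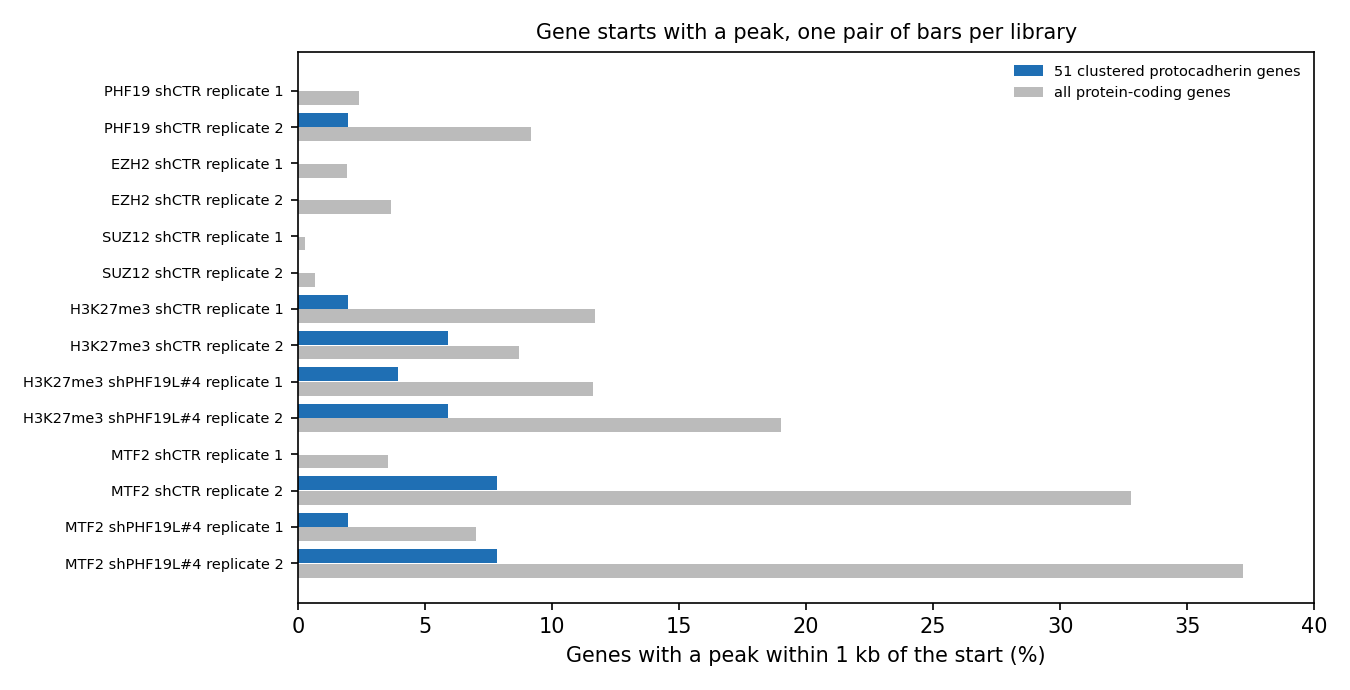
Share of gene starts with a peak within 1 kb, in %, with 1 pair of bars per library: the 51 clustered protocadherin genes and all protein-coding genes. The protocadherin bar is the shorter in every library, and in MTF2 replicate 2 the bars stand at 7.84% against 32.8% and 37.2%.

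Regions called in both replicates were also counted. PHF19, EZH2 and SUZ12 had none in the interval, while 2.40%, 1.64% and 0.179% of all genes were marked this way. H3K27me3 regions of both replicates marked PCDHB1 in shCTR, against 8.44% of all genes, and PCDHB1 and PCDHB12 in shPHF19L#4, against 12.0%. MTF2 regions of both replicates marked none in shCTR, against 3.59%, and PCDHB1 in shPHF19L#4, against 7.17%.

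PCDHB1, the first gene of the beta subcluster, was the member with the most peaks. Its gene model spans chr5:140430959-140438931 as a single exon, and the peaks cover its start and the first part of that exon. H3K27me3 peaks lay over the start in all 4 lists, with MACS scores of 374 and 128 in shCTR and 593 and 1301 in shPHF19L#4. The score was the higher in shPHF19L#4 in each replicate, but scores are not scaled between lists and the difference was not tested. Within their own lists these scores were exceeded by 13.7% and 32.4% of the shCTR peaks and by 6.72% and 6.34% of the shPHF19L#4 peaks.

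MTF2 also lay over the PCDHB1 start. In shCTR it was called in replicate 2 with a score of 365 and was not called in replicate 1. In shPHF19L#4 it was called in replicate 1, at chr5:140430153-140431893, and in replicate 2 with a score of 1002. PHF19 was called there in replicate 2 of shCTR alone, at chr5:140430192-140431817, with a score of 71.1 that 35.9% of that list exceeded. No EZH2 or SUZ12 peak of either shCTR replicate overlapped it.

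Upstream of PCDHB1, in sequence with no protein-coding gene, H3K27me3 formed a further stretch. Peaks of both replicates merged to chr5:140421736-140423398 and chr5:140428170-140429582 in shCTR and to chr5:140420891-140427556 in shPHF19L#4. A further shPHF19L#4 region of both replicates, chr5:140428066-140433517, reached across the start and held the second of these shCTR regions. In shPHF19L#4 replicate 2 the upstream peak had a score of 1249, close to the 1301 at the start itself. The highest upstream scores were 385 and 105 in replicates 1 and 2 of shCTR, and 179 in replicate 1 of shPHF19L#4. The upstream score was thus lower in shPHF19L#4 in replicate 1 and higher in replicate 2. Scores are not scaled between lists, and the difference was not tested. PHF19 and MTF2 peaks did not extend into this upstream stretch beyond the peak over the start.

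**Figure D3:**
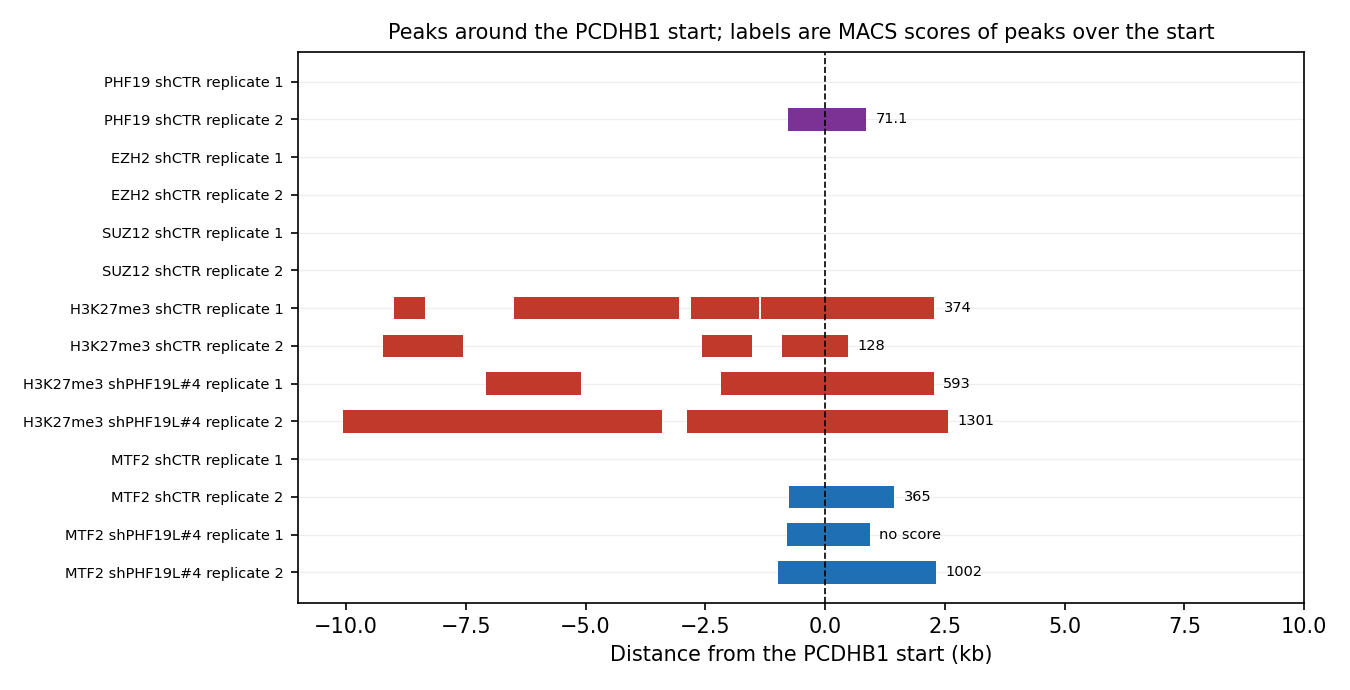
Peaks around the PCDHB1 start (dashed line), by distance in kb, with the MACS score of each peak that covers the start. H3K27me3 reaches upstream in all 4 lists, and the MTF2 and PHF19 peaks are centred near the start.

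Among the other beta genes, PCDHB6 and PCDHB12 had peaks in 2 lists each. PCDHB12 had H3K27me3 in both shPHF19L#4 replicates, with scores of 52.5 and 241, and in shCTR replicate 1 the nearest H3K27me3 peak lay farther upstream, at chr5:140586061-140586736. PCDHB6 had H3K27me3 in shCTR replicate 2 (score 57.1) and MTF2 in shPHF19L#4 replicate 2 (score 112). An H3K27me3 peak of shPHF19L#4 replicate 2, at chr5:140526965-140528565, overlapped that of shCTR and ended just outside the window of PCDHB6 (score 53.2). PCDHB2, PCDHB7 and PCDHB11 had a peak in 1 list each. That of PCDHB11, H3K27me3 in shCTR replicate 2 (score 53.5), reached only 0.028 kb into its window. PCDHB3, PCDHB4, PCDHB5 and the last gene of the subcluster, PCDHB15, had none. Many of these scores lie near 50, the lowest in each list with scores.

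No alpha gene had a peak within 1 kb of its start, from PCDHA1, PCDHA2 and PCDHA3 at the 5′ end to PCDHA13. A single H3K27me3 peak, in shCTR replicate 1, lay farther out between PCDHA1 and PCDHA2 (score 126). The other alpha peaks lay at the C-type genes and at 1 intronic site downstream of them. At PCDHAC1, MTF2 replicate 2 had scores of 643 in shCTR and 1016 in shPHF19L#4, PHF19 replicate 2 had 230, and H3K27me3 was called over the start in shPHF19L#4 replicate 2 (score 397). In shCTR replicate 2 an H3K27me3 peak lay in the first exon of PCDHAC1, 1079 bp from the start and so just outside the window (score 74.4). At PCDHAC2, MTF2 replicate 2 had 263 in shCTR and 550 in shPHF19L#4, and H3K27me3 had 113 in shCTR replicate 1 and 358 in shPHF19L#4 replicate 2. Each C-type gene thus had a peak in 4 lists, more than any member other than PCDHB1, and in no target and condition did both replicates mark either start.

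A further site lay at chr5:140380309-140382857, inside an intron of all 13 alpha genes and of both C-type genes and away from any start. PHF19 replicate 2 had its highest score of the interval there, 261, and MTF2 replicate 2 had 206 in shCTR and 227 in shPHF19L#4. H3K27me3 was called there in shPHF19L#4 replicate 2 alone, with a score of 54.9.

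In the gamma subcluster PCDHGB2, PCDHGA7, PCDHGB5 and PCDHGC3 had a peak in 1 list each, all in replicate 2 and with scores of 65.6, 52.7, 55.6 and 55.8. PCDHGA1, PCDHGA2 and PCDHGA3 had none, nor did the C-type genes PCDHGC4 and PCDHGC5. PHF19 replicate 2 also had a peak 1986 bp downstream of the PCDHGC3 start, in its first exon, with a score of 61.5. The C-type genes of the gamma subcluster therefore carried fewer and weaker peaks than those of the alpha subcluster, a difference that was not tested.

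The length of the interval covered by H3K27me3 peaks was 15.9 and 7.19 kb in shCTR and 9.55 and 27.6 kb in shPHF19L#4. The means were 11.5 ± 6.16 kb and 18.5 ± 12.7 kb (SD, n = 2 each), and the groups overlapped. The difference of 7.005 kb was larger than the SD in shCTR and smaller than that in shPHF19L#4, and did not pass the test (exact permutation test, two-sided, p = 0.667, n = 2 against 2). The smallest p that this design allows is 0.333. The replicates moved in opposite directions, by -6.35 kb in replicate 1 and 20.4 kb in replicate 2. So did the lists as a whole, whose total length went from 108 to 96.9 Mb in replicate 1 and from 30.4 to 159 Mb in replicate 2, and the part of list size in the difference was not tested. Per 10 Mb covered by a list, the interval held 1.47 and 2.36 kb in shCTR and 0.986 and 1.73 kb in shPHF19L#4, lower in shPHF19L#4 in both replicates.

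MTF2 peaks covered 0 and 16.8 kb in shCTR and 1.74 and 15.9 kb in shPHF19L#4. The means were 8.405 ± 11.9 kb and 8.82 ± 10.01 kb (SD, n = 2 each), a difference of 0.415 kb (exact permutation test, two-sided, p = 1, n = 2 against 2). Both replicate 1 libraries lay below both replicate 2 libraries, and the conditions overlapped. The MTF2 lists of replicate 1 were also the shorter, and the part of list size was not tested. As a share of the interval, H3K27me3 covered 2.15% and 0.971% in shCTR and 1.29% and 3.72% in shPHF19L#4, where the genome as a whole was covered to 3.50%, 0.983%, 3.13% and 5.15%. MTF2 replicate 2 covered 2.27% and 2.15% of the interval, against 1.504% and 1.91% of the genome, and PHF19 replicate 2 covered 1.25% against 0.543%. In replicate 1 the order was the reverse: MTF2 covered 0% and 0.235% of the interval against 0.193% and 0.354% of the genome, and PHF19 covered 0% against 0.0689%.

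**Figure D4:**
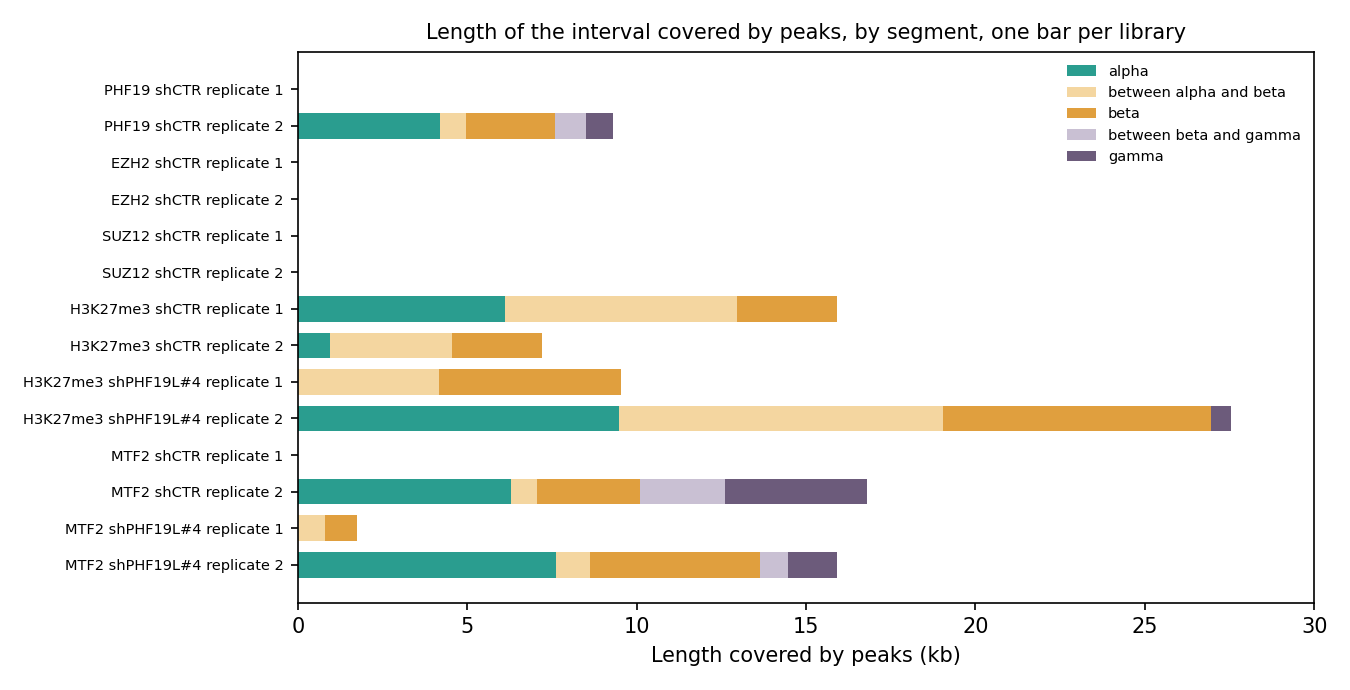
Length of the interval covered by peaks in each library, in kb, split by segment. H3K27me3 runs from 7.19 to 27.6 kb with the conditions overlapping, and the MTF2 libraries divide by replicate.

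The authors' DiffBind tables list regions that passed their own thresholds (P value and FDR for PHF19 against input, P value alone for shCTR against shPHF19L#4), with the mean log2 read concentration of each group and no value per replicate. Of 2546 MTF2 regions, 1 lay in the interval, over the PCDHB1 start. Like the MTF2 peak of shPHF19L#4 replicate 1, this region lay at chr5:140430153-140431893, so its place is not a separate observation. Its authors' mean log2 concentration was 6.59 in shCTR and 7.41 in shPHF19L#4, a difference of 0.82, and the median difference over all listed MTF2 regions was 0.87. Listed MTF2 regions marked 1 of the 51 starts and 6.68% of all genes. The tables of 2408 EZH2, 508 SUZ12 and 1049 H3K27me3 regions, which also compare shCTR with shPHF19L#4, had none in the interval, and such regions marked 7.06%, 1.84% and 2.02% of all genes. The PHF19 table compares the PHF19 ChIP of shCTR cells with input and not the conditions. None of its 1245 regions lay in the interval, and they marked 3.24% of all genes. Since the tables were selected by that threshold, the listed difference is a description and the absence of a region does not show that the groups of a table had equal signal.

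Every target also had listed regions outside the interval, and distances to the nearest of these are given from the edge of the interval. The nearest listed H3K27me3 region lay 147 kb upstream. Outside the interval, the nearest listed EZH2, MTF2 and PHF19 regions lay 181, 181 and 182 kb downstream. The nearest listed SUZ12 region lay 355 kb downstream, within 1 kb of the start of PCDH1, a protocadherin outside the clusters. PCDH1 had a peak within 1 kb of its start in all 14 lists. Of 11 protocadherin genes outside the clusters, 3 had a peak in any list: PCDH1, PCDH8 in 5 lists and PCDH19 in 3. Of all protein-coding genes, 48.0% had a peak in any list and 9.79% in 5 or more, so a count in any list is read against a high background. Of 22 other protein-coding genes in the interval or within 300 kb, 9 had a peak in any list and none in 5 or more. MTF2 replicate 2 marked 8 of the 22 in shCTR and 6 in shPHF19L#4, against 32.8% and 37.2% of all genes. Of 6 genes for factors known to act on the clusters, RAD21, a cohesin subunit, had a peak in 5 lists, including H3K27me3 in all 4. The H3K27me3 peaks covered only a small part of the RAD21 window, 0.194 and 0.387 kb in shCTR and 0.192 and 0.325 kb in shPHF19L#4. DNMT3B had a peak in 3 lists, SMCHD1 in 2, CTCF and SMC3 in 1 and SMC1A in none.

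The promoters of the members were compared in the GRCh37 sequence, from 250 bases before to 50 bases after each gene start. The 8-base words held by the most members, on either strand, were GGTGGCGC, GTGGCGCT and TGGCGCTG, which overlap each other. Each was in 14 of the 51 promoters, against 2.62%, 1.43% and 2.29% of all 20163 promoters. GGTGGCGC and GTGGCGCT were in the same number of beta genes, 14 of 16, and in no alpha or gamma gene, and the beta genes without them were PCDHB1 and PCDHB6. In beta genes the match began between positions -84 and -2 relative to the start. Searched within each subcluster, a choice made after the data were seen, ATGTCGCT and GATGTCGC were in 10 of 13 alpha promoters (0.303% and 0.377% of all promoters) and GCCGCTGT was in 11 of 22 gamma promoters (1.74%). A match is a description of letters and not of a bound factor.

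The 120 bases upstream of the start are shown for PCDHB1, the most marked member, beside the next and the last beta gene, which have few or no peaks, and the C-type alpha genes. All are on the plus strand of GRCh37, and capitals mark the shared beta words. They lie at chr5:140430839-140430958 (PCDHB1), chr5:140474071-140474190 (PCDHB2), chr5:140624843-140624962 (PCDHB15), chr5:140305764-140305883 (PCDHAC1) and chr5:140345935-140346054 (PCDHAC2).
PCDHB1: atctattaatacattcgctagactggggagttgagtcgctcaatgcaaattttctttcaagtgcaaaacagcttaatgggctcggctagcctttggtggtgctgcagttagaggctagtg
PCDHB2: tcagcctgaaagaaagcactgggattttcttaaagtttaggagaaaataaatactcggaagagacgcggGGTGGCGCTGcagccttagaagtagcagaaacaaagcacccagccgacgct
PCDHB15: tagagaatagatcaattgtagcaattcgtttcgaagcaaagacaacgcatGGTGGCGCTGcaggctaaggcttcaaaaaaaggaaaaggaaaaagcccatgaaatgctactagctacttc
PCDHAC1: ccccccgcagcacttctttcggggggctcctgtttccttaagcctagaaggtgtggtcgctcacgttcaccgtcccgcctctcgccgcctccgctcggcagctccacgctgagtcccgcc
PCDHAC2: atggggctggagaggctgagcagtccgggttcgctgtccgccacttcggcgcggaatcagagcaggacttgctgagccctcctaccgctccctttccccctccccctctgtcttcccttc
The 120 bases hold 3 CpG in PCDHB1, 6 in PCDHB2, 4 in PCDHB15, 12 in PCDHAC1 and 7 in PCDHAC2.

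CpG content separated the C-type alpha genes from the members but not PCDHB1. In the 2 kb around the start, members had a median of 54 CpG, from 14 to 94, against a median of 90 over all protein-coding genes. The medians were 57 in alpha, 39.5 in beta and 58 in gamma. PCDHB1 had 64, the highest of the beta genes and rank 12 among the 51. PCDHAC1 had 126 and PCDHAC2 had 107, above every member, and PCDHGC3 had the most of the members with 94 and a peak in 1 list.

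**Figure D5:**
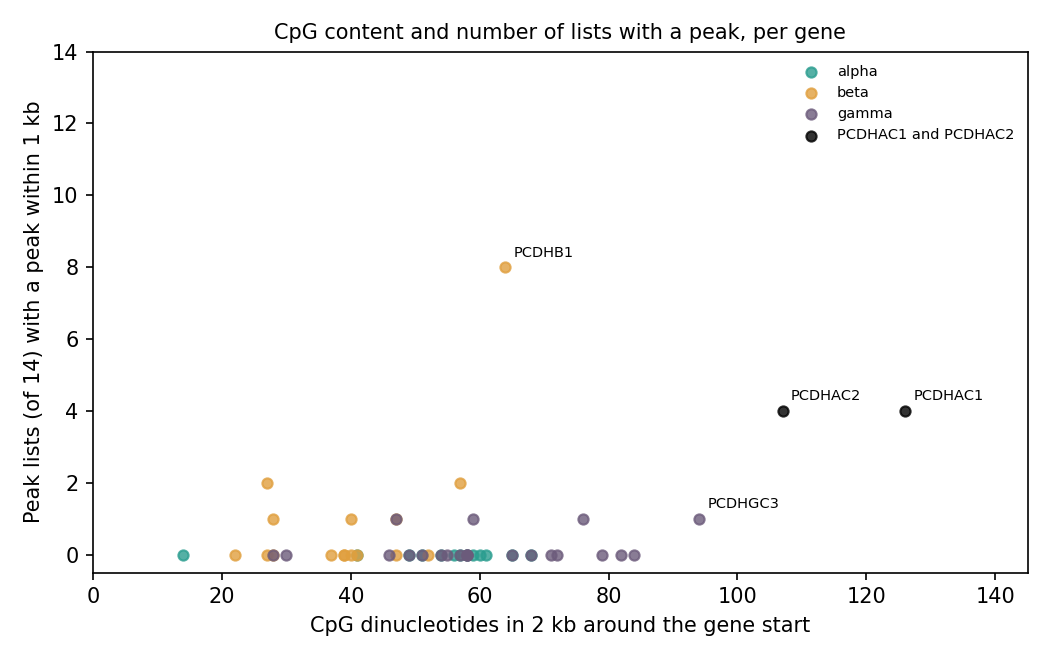
CpG dinucleotides in the 2 kb around each gene start against the number of the 14 lists with a peak within 1 kb, 1 point per gene. PCDHB1 stands at 64 CpG and 8 lists, and PCDHAC1 and PCDHAC2 at 126 and 107 CpG and 4 lists each.

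Because the authors kept reads that mapped to a single place, the share of 32-base words that occur once in the genome was computed for the interval, a measure added after the data were seen. It was 86.7% for the interval, 80.6% for the 300 kb before it and 91.9% for the 300 kb after it. In the 2 kb around the start the median was 91.3% in alpha, 99.3% in beta and 97.9% in gamma. The lowest values were 56.4% at PCDHB13, 57.1% at PCDHB8 and 64.6% at PCDHA7, none of which had a peak, but PCDHGB5 at 73.4% had one. Of the 12 starts at 100%, 6 had a peak in at least 1 list (PCDHB1, PCDHB2, PCDHB6, PCDHB7, PCDHGB2 and PCDHGC3), against 4 of the 39 starts below it. The median was 100% over the 10 starts with a peak and 96.5% over the 41 without. The groups overlapped, with the higher median at the starts with a peak, and the part of this share in the counts of marked starts was not tested.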

How the data were processed

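The authors mapped reads with Bowtie to hg19, or to hg19 with the fly genome dm3 for samples with spike-in, kept uniquely mapped reads and ran MACS on every replicate by itself. The MACS score of a peak is as deposited, and some lists hold it inside a text field with the peak's name. The log2 values are mean read concentrations made by the authors with DiffBind. The fold, P value and FDR columns of those tables hold the authors' comparisons and were not used. Peak lists carry no spike-in scaling. The second header line of the DiffBind tables of both conditions was used, since the first names an input. Starts are printed counted from 1. The MTF2 lists of replicate 1 already count from 1: 2494 of 2546 DiffBind starts, moved by 1, equal a start in them.

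Overlaps of at least 1 bp were counted with Python 3.11.15 and numpy 2.4.6, and the overlap functions were tested on simulated intervals. Sequence was read with pysam 0.24.0, repeated words were counted with numba 0.67.0, and figures were drawn with matplotlib 3.10.9. The start was that of the GENCODE gene. Overlapping peaks were joined, and a joined region counted for both replicates where each contributed a peak. Named genes were, per subcluster, the first and last gene, the 3 with peaks in the most and the fewest lists (ties by position), genes nearest to a DiffBind region, and PCDHGC3, PCDHGC4 and PCDHGC5; others were named after their values were seen. The members and lists were chosen with earlier results of these data known. Alternatives were a 2.5 kb window, the first exon, the interval from 2.5 kb upstream to the gene end, 50% of the window covered, a score of at least 100, either replicate, each replicate left out, and a replicate block. The start of the canonical transcript and words searched per subcluster were added after the data were seen. Inputs, EZH2 and SUZ12 peaks of shPHF19L#4 cells and RNA-seq were not analysed here, and the planned comparison of protein sequences was not run.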

Additional observations from a re-analysis of the deposited data

How the results depend on the processing

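Of 86 alternative values, 9 counts moved by more than 1.5 times and 4 differences changed sign. In this tally size was judged for counts alone. Some differences that kept their sign also moved by more than 1.5 times, as the values below show. The counts of marked starts depended on replicate 2. Counted in either replicate, the starts marked were 1 for PHF19, 3 for H3K27me3 in shCTR, and 4 for MTF2 in shCTR and 4 in shPHF19L#4, against 0, 1, 0 and 1 in both. Replicate 2 alone gave the same counts, and marked 9.17%, 8.70%, 32.8% and 37.2% of all genes. With 1 replicate left out the count ran from 0 to 1 for PHF19, from 1 to 3 for H3K27me3 in shCTR, from 0 to 4 for MTF2 in shCTR and from 1 to 4 in shPHF19L#4. With a MACS score of at least 100, H3K27me3 of both shPHF19L#4 replicates marked 1 start in place of 2, since the peak at PCDHB12 in replicate 1 scored 52.5. The difference in H3K27me3 covered length, 7.005 kb, became -0.559 kb per 10 Mb of the list, and ran from -6.35 to 20.4 kb with 1 replicate left out. The difference in MTF2 covered length, 0.415 kb, became -0.5 peaks when peaks were counted and 3.45 kb with a MACS score of at least 100, where the replicate 1 lists, which hold no score, were kept whole and both replicates were higher in shPHF19L#4 (1.74 and 5.16 kb). It ran from -0.911 to 1.74 kb with 1 replicate left out. The cause was not tested. With the replicate block the differences were the same, 7.005 kb and 0.415 kb (exact sign-flip test, two-sided, p = 1 for both, with 0.5 the smallest possible). The study's methods name the replicate as a block for ChIP against input, and name no block for shCTR against shPHF19L#4. Neither test can reach 0.05, so neither says anything on stability. Depth is unknown, and a start without a peak in a short list cannot be called unbound.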
